A study of Mus musculus with 6 samples.

Results

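Nr2f1, Nr2f2, Nr2f6, Nr2e1 and Sp8 are 5 transcription factor genes with roles in patterning the forebrain, and they were followed here by the gene symbols that belong to 5 of the 48526 gene identifiers in the series. The series measured RNA by sequencing in neural progenitor cells made from mouse embryonic stem cells. There were 3 libraries labelled -/- for Dmrta2 and 3 labelled flox/flox, the control. Both groups received the same medium, with LDN193189 (100 nM, a BMP receptor inhibitor) and SB431542 (10 µM, which blocks the receptors of activin and TGF-beta) until day 4, XAV939 (1 µM, a Wnt pathway inhibitor) until day 6 and cyclopamine (1 µM, a Hedgehog pathway inhibitor) from day 2 on, and RNA was taken on day 8. The cells had been replated on day 5 onto poly-D-lysine and laminin. Each genotype is 1 cell line, so genotype and line cannot be told apart and p-values reflect only the scatter of samples within a line. The labels do not say which stretch of Dmrta2 the -/- line lacks.

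Nr2f1 (also COUP-TFI), Nr2f2 (COUP-TFII) and Nr2f6 (EAR2) are orphan nuclear receptors of the NR2 subfamily that bind DNA through 2 zinc fingers and act mostly as repressors. In the mouse cortical primordium Nr2f1 is highest at the caudal and lateral side, Nr2f2 marks caudal and ventral territories including the caudal ganglionic eminence, and Sp8, a zinc finger factor of the Sp family, is highest at the rostral and medial side, where it promotes Fgf8 expression. Nr2e1 (Tlx, the mouse tailless homologue) keeps neural progenitors dividing and helps to place the border between pallium and subpallium. Graded levels of such factors across the progenitor sheet set the position of cortical areas.

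The 4 receptors are paralogs, and the letters below show how far their genes can be told apart by reads. They are the coding bases from the start of the recognition helix of the first zinc finger, read from GENCODE M21 transcripts on GRCm38, with capitals where a gene differs from Nr2f1.
Nr2f1: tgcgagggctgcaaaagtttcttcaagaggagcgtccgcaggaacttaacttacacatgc
Nr2f2: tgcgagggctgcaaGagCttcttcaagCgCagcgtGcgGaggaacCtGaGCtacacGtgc
Nr2f6: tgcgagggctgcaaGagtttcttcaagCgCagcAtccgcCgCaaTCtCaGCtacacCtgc
Nr2e1: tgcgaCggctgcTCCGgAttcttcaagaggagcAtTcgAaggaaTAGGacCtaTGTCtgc
Of these 60 bases, 49 in Nr2f2, 48 in Nr2f6 and 42 in Nr2e1 equal those of Nr2f1. Over whole transcripts, Nr2f1 and Nr2f2 had 10 runs of 50 bases in common, which is 0.196% of the runs in Nr2f1 and 0.117% of those in Nr2f2. Nr2e1 shared 16 of 3655 runs and Sp8 0 of 4557 with any other gene, while Nr2f6 shared 1384 of 3192 with Ocel1 on the opposite strand. Runs of this length thus tell Nr2f1 and Nr2f2 apart over nearly all of their length.

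All 5 genes passed the test between genotypes (edgeR, adjusted p under 0.05 over 20549 genes), where 35.3% of all tested genes did. Nr2f1, Nr2f2 and Nr2e1 were higher in the libraries labelled -/-, as were 17.9% of tested genes, and Sp8 and Nr2f6 were lower, as were 17.4%. The groups did not overlap for any of the 5 genes, which was also so for 51.0% of tested genes. Dmrta2 itself was higher in the libraries labelled -/- (409, 414 and 439 CPM) than in those labelled flox/flox (85.2, 75.1 and 79.2 CPM). The count covers the whole gene and so does not check the deletion, and all directions are those of the labels. Genes on chromosome 11 stood higher as a whole in -/- libraries (median log2 fold change 0.49 over 1589 tested genes, against -0.022 over the other 18960), and none of the 5 lies there. In bulk RNA fewer cells of a type and less RNA per cell cannot be told apart, which applies to every level that follows. Levels are counts scaled to library size (CPM, with TMM factors), the 3 values of a group stand in the order of its columns A, B and C, and errors are SD over n = 3 libraries unless named as the standard error (SE) of a log2 fold change.

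**Figure D1:**
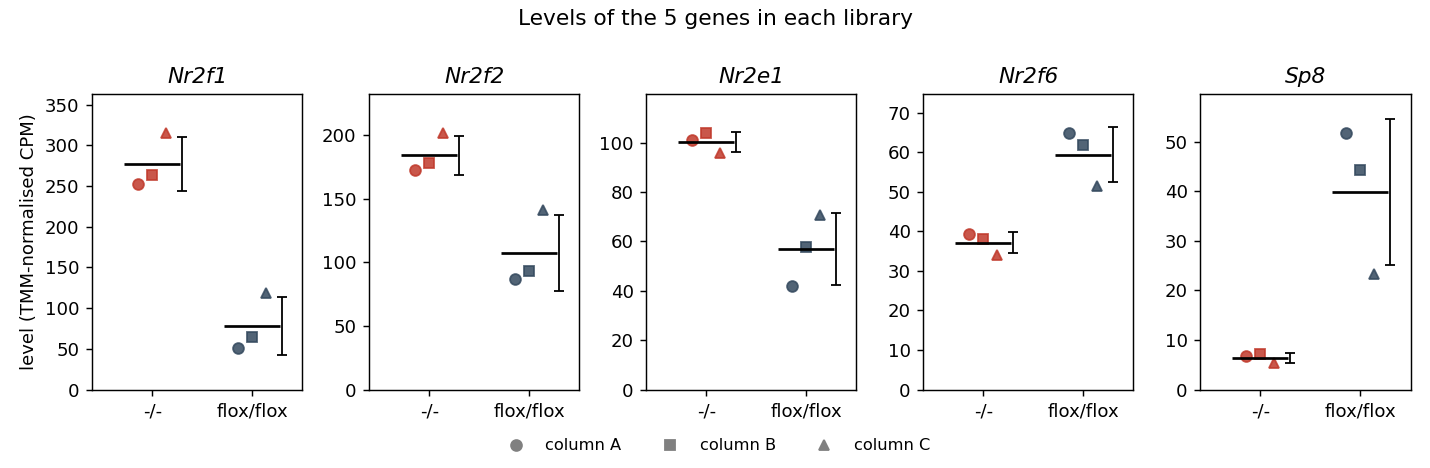
Level of each of the 5 genes (TMM-normalised CPM, linear axis from 0) in the 3 libraries labelled -/- and the 3 labelled flox/flox; each point is a library and its shape gives the column letter, the line is the mean and the bar the SD. The groups do not overlap for any gene, and in each panel flox/flox C is the control library nearest to the -/- libraries.

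Nr2f1 (ENSMUSG00000069171, chr13:78188973-78199757, minus strand) had the largest rise of the 5. It measured 253, 263 and 315 CPM in -/- libraries, against 50.5, 64.8 and 119 CPM in flox/flox libraries. The lowest -/- library was 2.13-fold above the highest control. The log2 fold change was 1.83 ± 0.29 (SE), or 3.55-fold with a 95% interval of 2.21 to 5.71, and the adjusted p was 0.00316 (edgeR). Of all tested genes, 3.88% had a larger absolute log2 fold change. The control libraries differed among themselves by 2.36-fold and the -/- libraries by 1.25-fold.

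Nr2f2 (ENSMUSG00000030551, chr7:70351944-70366735, minus strand), the closest paralog of Nr2f1, rose less. Its levels were 173, 178 and 202 CPM in -/- libraries and 86.9, 93.3 and 141 CPM in flox/flox libraries, so that the lowest -/- library lay 1.22-fold above flox/flox C. The log2 fold change was 0.78 ± 0.18 (SE), or 1.72-fold with an interval of 1.29 to 2.29 (adjusted p = 0.0129, edgeR). This call was lost without flox/flox B (log2 0.69, adjusted p = 0.0550). The adjusted p lay between 0.000197 and 0.0550 over all alternatives.

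Nr2f2 is also a gene of mesenchyme and of venous endothelium. The marker sums of each cell type were lower in the libraries labelled -/-, and the separation of each sum rested on 1 marker. The summed level of 9 mesenchymal markers ran from 168 to 242 CPM in -/- libraries and from 305 to 740 CPM in flox/flox libraries, with 4 of the 9 lower (2 without -/- B) and 1 higher (2 without flox/flox A or -/- C, 0 without flox/flox B or -/- A). Without Col3a1, which was at 91.0 ± 15.7 CPM in -/- and 328 ± 183 CPM in flox/flox libraries, the sums overlapped, at 145, 129 and 94.6 CPM in -/- and 202, 84.9 and 102 CPM in flox/flox libraries. Prrx1 (log2 -1.46 ± 0.25), Twist1 (-1.38 ± 0.35) and Dcn (-1.02 ± 0.26), at lower levels than Col3a1, passed as lower too. Col1a2 was the mesenchymal gene that rose, by 1.73 ± 0.44 (log2). The 6 endothelial markers summed to 9.15 to 21.3 CPM in -/- libraries and 58.2 to 91.6 CPM in flox/flox libraries. Of the 4 that could be tested only Kdr passed, with 4.08 ± 1.87 CPM in -/- and 53.4 ± 25.1 CPM in flox/flox libraries, and Emcn stayed under 0.1 CPM in all 6 libraries. Without Kdr the endothelial sums overlapped too, at 15.1, 15.3 and 6.26 CPM in -/- and 13.0, 20.6 and 29.8 CPM in flox/flox libraries. The part of these cells in the Nr2f2 level was not tested.

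The balance between Nr2f1 and Nr2f2 differed between the genotypes. Per kilobase of exon, Nr2f2 made up 28.7%, 28.5% and 27.4% of the summed Nr2f1 and Nr2f2 level in -/- libraries, against 50.4%, 45.9% and 41.2% in flox/flox libraries. The groups did not overlap, and the mean share was 28.2% ± 0.702 in -/- and 45.9% ± 4.59 in flox/flox libraries. The difference of -17.6 percentage points had an exact two-sided permutation p of 0.1, which is the smallest that 3 against 3 libraries can give. Their summed level was 75.8 ± 8.38 CPM per kilobase in -/- and 27.8 ± 10.5 CPM per kilobase in flox/flox libraries.

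Nr2f6 (ENSMUSG00000002393, chr8:71374123-71381960, minus strand), the third COUP-TF-like receptor, known in the mouse for its role in the locus coeruleus and in T cells, went the other way. It measured 39.3, 38.1 and 34.1 CPM in -/- libraries and 64.9, 61.8 and 51.5 CPM in flox/flox libraries. The log2 fold change was -0.68 ± 0.10 (SE), a lower level by a factor between 1.36 and 1.88 as its 95% interval (adjusted p = 0.00245, edgeR). Of its exonic bases, 54.4% lie under exons of Ocel1 on the opposite strand. The strand setting of the counting is not given in the sources used here, so the reads of Nr2f6 and Ocel1 may not be separable.

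**Figure D2:**
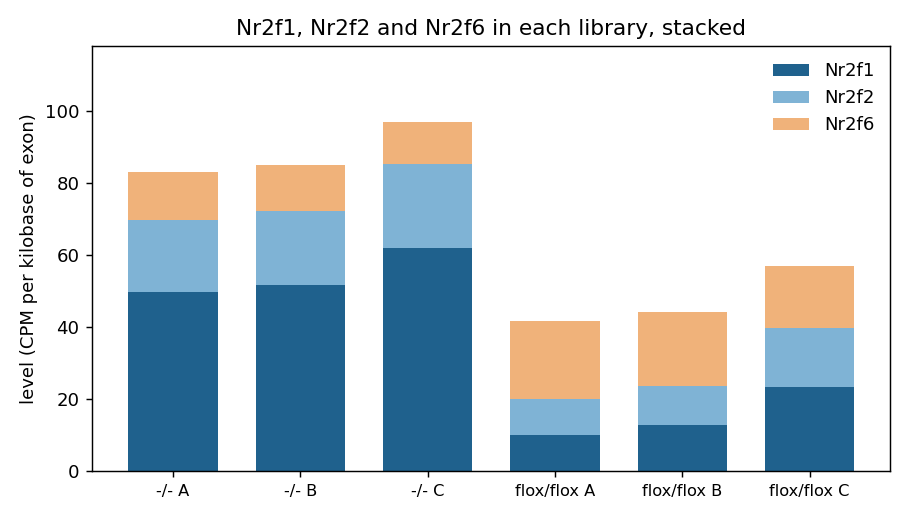
Levels of Nr2f1, Nr2f2 and Nr2f6 per library, stacked, in CPM per kilobase of exon, with -/- libraries left and flox/flox libraries right. The bars reach 82.9 to 96.8 in -/- libraries and 41.8 to 57.0 in flox/flox libraries, and the Nr2f6 share is smaller in every -/- bar.

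Taken as a trio, the Nr2f genes summed to 82.9, 85.1 and 96.8 CPM per kilobase in -/- libraries and to 41.8, 44.3 and 57.0 CPM per kilobase in flox/flox libraries. Nr2f6 supplied 11.8% to 15.9% of that sum in -/- libraries, against 30.3% to 52.1% in flox/flox libraries. The shares of the groups did not overlap. This difference was not tested on its own, and the share rests on Nr2f6 counts that may not be separable from those of Ocel1.

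Nr2e1 (ENSMUSG00000019803, chr10:42561963-42583632, minus strand) rose by about as much as Nr2f2. It measured 101, 104 and 95.7 CPM in -/- libraries and 42.0, 57.9 and 70.8 CPM in flox/flox libraries. The log2 fold change was 0.82 ± 0.17 (SE), or 1.76-fold with an interval of 1.35 to 2.31 (adjusted p = 0.00846, edgeR). The -/- libraries lay within 1.09-fold of one another, the narrowest range of the 5 genes, while the controls spanned 1.68-fold.

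Sp8 (ENSMUSG00000048562, chr12:118846329-118852576, plus strand) changed most. It measured 6.74, 7.17 and 5.28 CPM in -/- libraries, from 265, 253 and 150 reads, and 51.8, 44.3 and 23.3 CPM in flox/flox libraries. The log2 fold change was -2.63 ± 0.29 (SE), a 6.20-fold lower level with an interval of 3.86 to 9.97, and the adjusted p was 0.000831 (edgeR). The lowest control library was 3.25-fold above the highest -/- library, and 1.38% of tested genes had a larger absolute log2 fold change. By mean level, 63.5% of tested genes stood above Sp8 in -/- libraries and 30.6% in flox/flox libraries.

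Set against each other per kilobase of exon, the genes stood in a different order in each genotype. In the libraries labelled -/-, Nr2f1 came first with 54.4 ± 6.57 CPM per kilobase, then Nr2e1 with 27.01 ± 1.12, Nr2f2 with 21.4 ± 1.80, Nr2f6 with 12.5 ± 0.916 and Sp8 with 1.403 ± 0.218, and no neighbours in that order overlapped between libraries. In the flox/flox libraries Nr2f6 (19.9 ± 2.36), Nr2f1 (15.3 ± 7.10), Nr2e1 (15.3 ± 3.88), Nr2f2 (12.4 ± 3.46) and Sp8 (8.73 ± 3.23) followed each other within their spread, so that no neighbours in this order were separated. Levels of different genes compared in this way depend on the exon length used, and those of Nr2f6 also on counts that may not be separable from Ocel1. The ratio of Nr2f1 to Sp8, genes with opposed gradients in the mouse cortex, was 33.6, 32.8 and 53.5 in -/- libraries and 0.873, 1.31 and 4.56 in flox/flox libraries.

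The 5 genes also shared an order among the control libraries. For each of the 5, flox/flox C was the control nearest to the -/- mean and flox/flox A the farthest, while flox/flox C was nearest for 54.5% of the 7250 called genes and flox/flox A farthest for 51.2%. Without flox/flox C the log2 fold changes were larger, at 2.27 for Nr2f1, 1.04 for Nr2f2, -0.76 for Nr2f6, 1.01 for Nr2e1 and -2.89 for Sp8. Neuronal markers were also highest in flox/flox C and lowest in flox/flox A among the controls: 6 of them summed to 2289, 2537 and 3858 CPM in -/- libraries and to 1057, 1372 and 1930 CPM in flox/flox libraries, and 5 of the 6 rose (log2 median 1.06). That count was 1 without flox/flox B, 2 without flox/flox A and 3 without -/- B or -/- C. Progenitor markers summed to 3533, 3329 and 3177 CPM in -/- libraries and to 3650, 3955 and 3405 CPM in flox/flox libraries, with 5 of 8 higher and 3 lower (2 and 1 without -/- B, 3 and 1 without flox/flox B). The part of the neuronal share in the levels of the 5 genes was not tested.

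All 8 progenitor markers were measured in every library, Sox2 at 181 ± 4.13 CPM in -/- and 235 ± 3.79 CPM in flox/flox libraries. Of 6 telencephalic markers 4 fell and 0 rose, and the list summed to 221 to 255 CPM in -/- and 355 to 398 CPM in flox/flox libraries. Hindbrain and spinal cord markers fell in 6 of 8 and rose in 0, with sums of 5.95 to 10.3 CPM in -/- and 14.6 to 18.2 CPM in flox/flox libraries. Eye markers fell in 3 of 4 tested and rose in 0 (9.07 to 11.7 CPM in -/- and 24.0 to 31.5 CPM in flox/flox libraries). Pluripotency markers fell in 2 of 5 tested and rose in 0 (58.0 to 80.6 CPM in -/- and 93.0 to 101 CPM in flox/flox libraries), but fell in 1 without -/- B or any single flox/flox library, and 1 rose in the fit with the column letter as a block. Endoderm markers rose in 3 of 6 tested and fell in 0, with sums that overlapped (77.3 to 91.3 CPM in -/- and 73.5 to 78.5 CPM in flox/flox libraries). Of these, 2 rose without flox/flox B or C or -/- A or B, and 4 without -/- C. Without flox/flox A, and in the fit with the letter as a block, 1 fell. The part of these differences in the levels of the 5 genes was not tested.

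Each member other than Sp8 has a gene on the opposite strand that overlaps it or starts close by. A830082K12Rik, a noncoding gene read from inside Nr2f1 on the plus strand, rose with it. It measured 67.3, 68.7 and 86.4 CPM in -/- libraries and 14.5, 17.9 and 33.5 CPM in flox/flox libraries, a log2 fold change of 1.76 ± 0.29 (SE, adjusted p = 0.00357, edgeR). As a share of the Nr2f1 level it was 26.7% ± 0.649 in -/- and 28.2% ± 0.548 in flox/flox libraries. It shares 123 exonic bases with Nr2f1, or 2.42% of Nr2f1's exons.

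The corresponding transcript at Nr2f2, B130024G19Rik, shares 643 exonic bases with it. B130024G19Rik was at 11.1, 10.9 and 13.1 CPM in -/- libraries and at 5.14, 6.34 and 11.7 CPM in flox/flox libraries, so that the groups overlapped, and the test was not passed (log2 0.60 ± 0.28, adjusted p = 0.14, edgeR). Ocel1, which shares 1622 exonic bases with Nr2f6, fell with it to 30.2 ± 2.93 CPM in -/- libraries, against 43.5 ± 5.13 CPM in flox/flox libraries (log2 -0.52 ± 0.11, adjusted p = 0.00919, edgeR).

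Nr2e1 and Ostm1, which encodes a membrane protein of lysosomes and of bone-resorbing osteoclasts, start 190 bases apart on opposite strands and share no exonic base. Ostm1 rose to 43.9, 41.2 and 45.5 CPM in -/- libraries, against 35.6, 31.6 and 32.8 CPM in flox/flox libraries (log2 0.38 ± 0.07, adjusted p = 0.00630, edgeR). Both genes of the pair were thus higher, Nr2e1 by more. The bases between their first exons are shown because they adjoin both starts (RefSeq, GRCm38.p6, chr10:42583633-42583821, read on the minus strand towards Nr2e1).
Nr2e1 to Ostm1 interval: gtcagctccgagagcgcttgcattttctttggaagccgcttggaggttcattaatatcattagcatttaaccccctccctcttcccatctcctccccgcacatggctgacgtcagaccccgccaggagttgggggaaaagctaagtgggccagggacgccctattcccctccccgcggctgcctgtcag

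**Figure D3:**
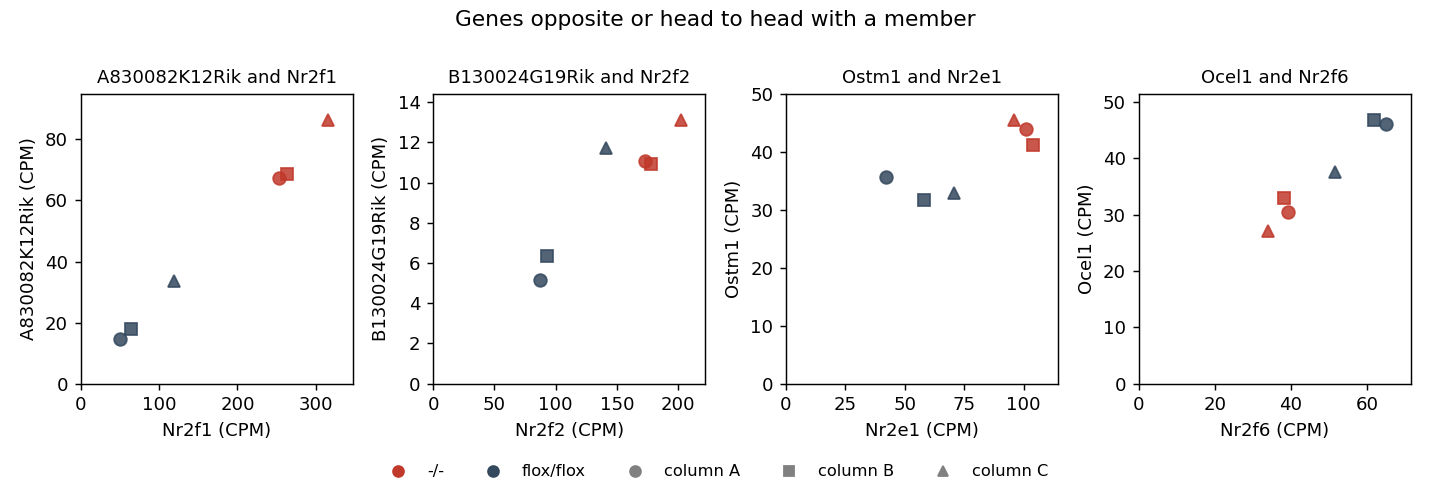
Level of each opposite-strand or head-to-head gene (vertical axis, CPM) against that of its member (horizontal axis, CPM), both from 0, with 1 point per library, colour for genotype and symbol for column letter. A830082K12Rik stays between 26.1% and 28.8% of Nr2f1 in all 6 libraries, while for B130024G19Rik flox/flox C lies among the -/- libraries at 11.7 CPM.

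All 5 genes matched RefSeq start sites, with 8 windows of 250 bases before a start in all, since Nr2f1 has 2 and Sp8 has 3. The Nr2f1 windows lie wholly in annotated exons of Nr2f1, so bases upstream of that annotated gene were not searched. The Nr2f2 window lies wholly in exons of B130024G19Rik. The Sp8 windows that begin at 118846983 and 118847309 lie inside the annotated Sp8 gene. The letters ACANTGT, the core of the palindrome bound by DMRT proteins, were in 0 of the 8 windows and in 6.47% of 32851 windows of that length over all genes. AGGTCA on either strand, the core recognised by many nuclear receptors, was in 1 of the 8 and in 14.0% of all windows, and GGGCGG on either strand, the GC box of Sp factors, was in 3 of the 8 and in 32.7% of all. The window with AGGTCA belongs to the Sp8 start at its second RefSeq position and is shown because Sp8 fell most (RefSeq, GRCm38.p6, chr12:118846983-118847232, plus strand). Capitals mark AGGTCA, here on the minus strand, and GGGCGG.
Sp8: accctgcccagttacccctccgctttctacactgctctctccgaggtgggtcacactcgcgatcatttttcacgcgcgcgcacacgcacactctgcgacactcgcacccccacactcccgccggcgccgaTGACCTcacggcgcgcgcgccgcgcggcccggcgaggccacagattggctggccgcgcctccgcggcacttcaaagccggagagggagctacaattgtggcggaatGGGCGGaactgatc
A match of letters is a description of the window and not a binding site.

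The remaining NR2 receptors and Sp factors split in direction. Of 8 receptors, 6 had enough reads to be tested, 1 rose and 2 fell (0 fell without -/- B or without flox/flox B or C, and 1 without flox/flox A or -/- A). Their median log2 fold change was -0.15, against -0.0025 over all tested genes. The 5 members split too, with 3 higher and 2 lower, and their median of 0.78 is the value of Nr2f2. Rxra, a partner of many nuclear receptors, was at 72.9 ± 5.85 CPM in -/- and 92.5 ± 8.25 CPM in flox/flox libraries (log2 -0.34 ± 0.09, adjusted p = 0.0197, edgeR), a call lost without flox/flox B or C or -/- B. Rxrb was called at an adjusted p of 0.0462 (edgeR) and lost the call without any single library. Hnf4a, a receptor best known from liver, rose to 1.24 ± 0.415 CPM in -/- libraries, against 0.0949 ± 0.0666 CPM in flox/flox libraries (log2 3.62 ± 0.49, adjusted p = 0.00165, edgeR; log2 4.34 without flox/flox A), from 140 reads in all 6 libraries. Of the Sp factors other than Sp8, 7 were tested, 1 rose and 2 fell, with a median of -0.17. Sp5, a Wnt target, fell to 3.95 ± 1.41 CPM in -/- libraries, against 15.4 ± 9.46 CPM in flox/flox libraries (log2 -1.95 ± 0.44, adjusted p = 0.0131, edgeR). That value was -1.31 without flox/flox A, and the call was lost without -/- B. Sp3 fell by 0.23 (log2) and Sp2, on chromosome 11, rose by 0.40. Sp9, the closest relative of Sp8, was at 6.23 ± 1.20 CPM in -/- and 4.82 ± 0.935 CPM in flox/flox libraries and did not pass (log2 0.37 ± 0.20, adjusted p = 0.188, edgeR).

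**Figure D4:**
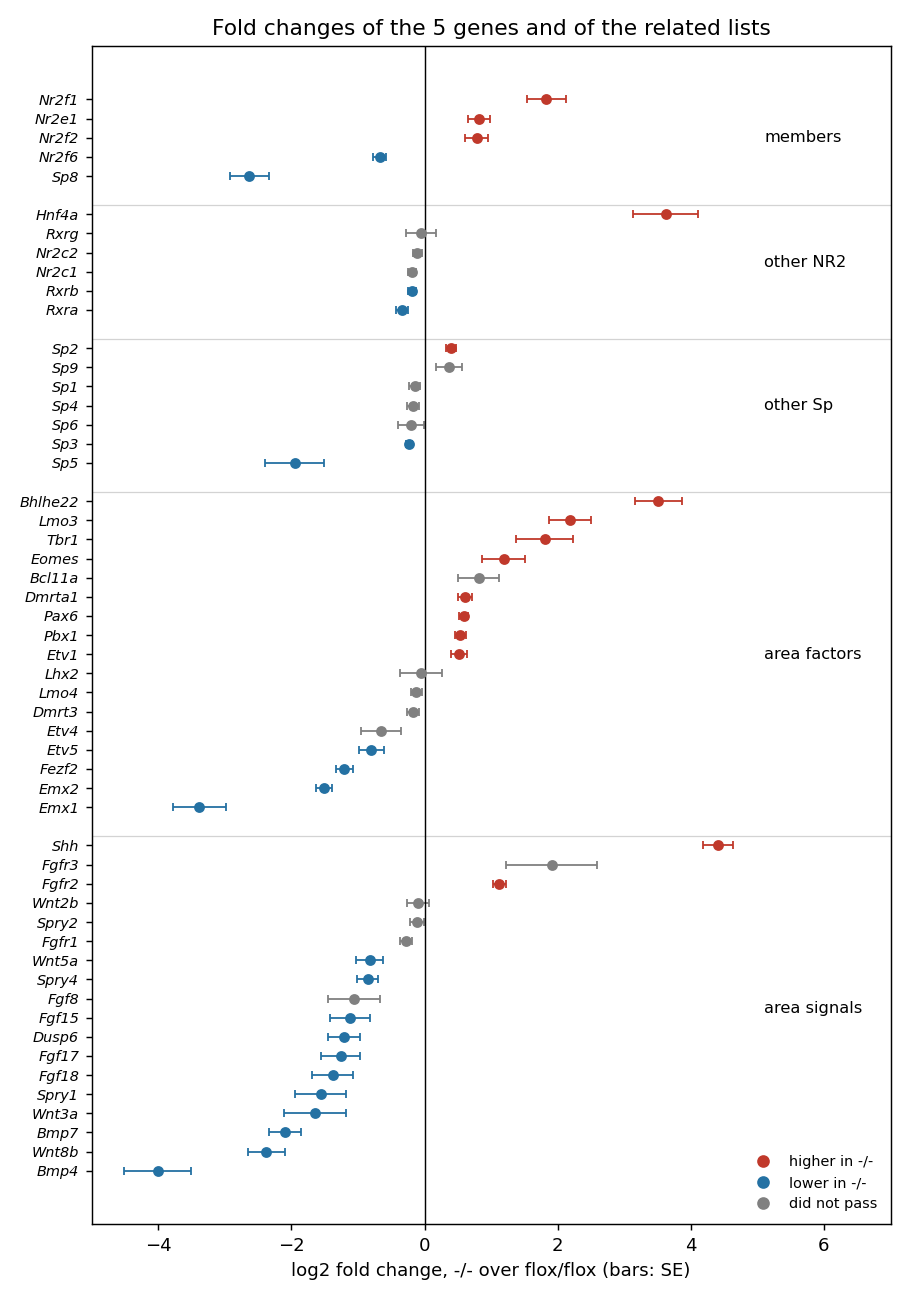
Log2 fold change (-/- over flox/flox, horizontal axis) with its SE for the 5 members, the other NR2 and Sp genes and the listed signals and all but 1 of the listed factors of area patterning, coloured by whether the gene passed the test. The members span -2.63 (Sp8) to 1.83 (Nr2f1), and 11 of 18 signalling genes are lower.

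Other transcription factors of area patterning went both ways, with 8 of 18 higher and 5 lower (median 0.23; 5 higher without flox/flox B). Emx2 (log2 -1.51 ± 0.12), which is highest at the caudal and medial side of the cortex, and Fezf2 (-1.20 ± 0.13) fell, with adjusted p of 0.000381 and 0.000816 (edgeR). Bhlhe22, a factor of postmitotic area identity, rose to 33.5 ± 7.61 CPM in -/- libraries, against 2.97 ± 1.69 CPM in flox/flox libraries. Lmo3 (log2 2.19 ± 0.32) and Pax6 (0.59 ± 0.07), which opposes Emx2 in the mouse cortex, rose as well. So by rostral and caudal side, the caudal factors Nr2f1 and Emx2 changed in opposite directions, as did the rostral factors Sp8 and Pax6. By medial and lateral side, Sp8 and Emx2, which are highest medially, fell, and Nr2f1, which is highest laterally, rose. These are picked genes, and other factors of the same list did not move, such as Lhx2 (log2 -0.054 ± 0.316) and Dmrt3 (-0.178 ± 0.090), which did not pass. Position along these axes was not tested.

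Signals of the patterning centres and their feedback genes were lower in 11 of 18 and higher in 2 (median -1.09; 7 lower without -/- B). Bmp7 fell to 32.1 ± 1.27 CPM in -/- libraries, against 138 ± 50.5 CPM in flox/flox libraries. Wnt8b, of the cortical hem (log2 -2.38 ± 0.27), and Bmp4 (-4.01 ± 0.51, or -3.32 without flox/flox A) fell too. Fgfr2 (log2 1.13 ± 0.10) and Shh (4.41 ± 0.23, with 28.3% of its exonic bases under another gene) rose. Fgf8, which Sp8 promotes and which restrains Nr2f1 in the mouse, was at 4.33 ± 1.49 CPM in -/- and 9.07 ± 4.45 CPM in flox/flox libraries and did not pass (log2 -1.06 ± 0.39, adjusted p = 0.0742, edgeR). The other listed Fgf ligand genes were Fgf15 (log2 -1.12 ± 0.30), Fgf17 (-1.26 ± 0.29) and Fgf18 (-1.38 ± 0.31), and these passed as lower.

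Of corepressors and partners of the NR2 receptors, 13 of 18 did not pass, 3 were higher and 2 lower (median -0.023, but 0.0026 with TMM factors made without chromosome 11; 5 higher in the blocked fit, which adds the column letter). Ncor1, on chromosome 11, was at 461 ± 7.44 CPM in -/- and 328 ± 2.54 CPM in flox/flox libraries. Rere, an atrophin that acts with Nr2e1, rose by 0.35 ± 0.05 (log2), and Atn1, the other atrophin, fell by 0.36 ± 0.08, although 84.2% of its exonic bases lie under another gene. Bcl11b, a binding partner of COUP-TF receptors, fell to 7.83 ± 1.37 CPM in -/- libraries, against 26.7 ± 8.67 CPM in flox/flox libraries (log2 -1.77 ± 0.24, adjusted p = 0.00166, edgeR). Zfpm2 rose by 0.69 ± 0.19, a call lost without flox/flox B or C or without -/- A or C.

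Among 12 genes reported elsewhere to be regulated by these factors, 10 were tested, 4 rose and 2 fell (median -0.18; 0 fell without flox/flox B or -/- B, 1 without flox/flox A, -/- A or -/- C, and 4 in the blocked fit). Rnd2, a small GTPase that Nr2f1 represses in migrating mouse neurons, lies on chromosome 11 and rose to 164 ± 39.9 CPM in -/- libraries, against 51.5 ± 11.1 CPM in flox/flox libraries. Nrp1, a semaphorin receptor gene, rose by 1.09 ± 0.17 (log2). Wnt7a, which Nr2e1 activates in mouse neural stem cells, rose by 2.93 ± 0.46, with 34.7 ± 5.61 CPM in -/- and 4.61 ± 3.30 CPM in flox/flox libraries (3.63 without flox/flox C). Sirt1 fell by 0.24, a call lost without flox/flox B or C and without any single -/- library.

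Genes of the lateral and caudal ganglionic eminences and their interneurons, where Nr2f1, Nr2f2 and Sp8 are also made, rose in 6 of 15 tested and fell in 2 (median 0.50; 10 rose in the blocked fit). The other 7 did not pass, Prox1, Dlx5, Dlx6 and Gsx1 among them. Dlx1 and Dlx2 were among those that rose (log2 3.49 and 2.40, but 2.39 and 1.71 without -/- C), and the Dlx2 call was lost without flox/flox B. Htr3a, Vip, Scgn and Gsx2 had too few reads to be tested. The median was 0.38 without -/- C and 1.02 without flox/flox C. Over all 19 listed genes the sum was 362, 364 and 464 CPM in -/- and 373, 348 and 382 CPM in flox/flox libraries. By this sum -/- C stood apart and -/- A and B lay within the control range. The sum weighs most on the listed genes highest in flox/flox libraries, Zfp503 and Reln. Zfp503 was at 111 ± 6.72 CPM in -/- and 128 ± 31.7 CPM in flox/flox libraries and did not pass, and Reln was at 50.6 ± 8.03 and 84.8 ± 11.3 CPM. It thus says little of genes at lower levels. The neuronal markers were also highest in -/- C, and their part in these differences was not tested. Calb2, which encodes calretinin, rose to 50.2 ± 12.4 CPM in -/- libraries, against 14.7 ± 6.83 CPM in flox/flox libraries. Each -/- library (37.8, 50.1 and 62.6 CPM) lay above every control (9.80, 11.8 and 22.5 CPM). Gad2, an enzyme of GABA synthesis, was at 6.54 ± 3.71 CPM in -/- and 0.645 ± 0.517 CPM in flox/flox libraries (log2 3.36 ± 0.62, adjusted p = 0.00540, edgeR; log2 4.16 without flox/flox C). Npas3 rose by 0.47 ± 0.10, and Reln (log2 -0.75 ± 0.14) and Tshz1 (-0.50 ± 0.07) fell.

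The genes whose profiles over the 6 libraries lay nearest to each member were found among 11508 others with a mean of at least 5 CPM, by the root mean square difference of log2 CPM after centring. Nearest to Nr2f1 were the ephrin receptor gene Epha3 (0.0596), Gpr39 (0.0888) and the adhesion gene Lsamp (0.126). Epha3 was at 305 ± 32.3 CPM in -/- and 81.2 ± 38.3 CPM in flox/flox libraries. Nearest to Nr2f2 were Aff3 (0.0703), Cspg5 (0.0736) and Slc29a3 (0.0864), and Nr2e1 itself lay at 0.152 from Nr2f2. Nr2e1 was nearest to the cadherin gene Cdh22 (0.0643) and to Vstm2b (0.0647). Nr2f6 was nearest to Galnt7 (0.0345), Adipor2 (0.0398) and Pacsin3 (0.0436), and Sp8 to Plekha4 (0.0850), the laminin receptor gene Bcam (0.154) and the tropomyosin gene Tpm1 (0.156). These distances are a description of the 6 libraries, which all profiles share.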

How the data were processed

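The authors deposited raw read counts per Ensembl gene for 6 libraries in 1 table. The submitters' processing notes name BWA 0.5.9, featureCounts 1.4.6 and mm10 (GRCm38), and per the labels' protocols libraries were made from 1 µg of RNA with a stranded mRNA kit. Which annotation release, strand setting and handling of duplicates went into the counting is not given in the sources used here. Since a column carries a genotype and a letter but no replicate number, each was mapped to its group alone; the number of sample columns unused was 0. Total counts were between 24565560 and 39646793 per library, so 1 CPM stands for at least 24.6 reads. Libraries of a group differed by more than sampling noise (chi-square per gene 5.47 to 29.8).

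Symbols and positions came from GENCODE M21 for 48144 of 48526 identifiers. Genes were kept by filterByExpr (minimum count 10, minimum total 15) and tested with the two-sided quasi-likelihood test of edgeR 4.0.16 in R 4.3.3 with TMM scaling and group alone, and p-values were adjusted by Benjamini-Hochberg over all tested genes (threshold 0.05). SE is the absolute log2 fold change divided by the square root of F. The steps were tested on simulated data. Deviations of libraries with the same letter correlated at 0.275 (A), 0.101 (B) and 0.264 (C) over 20549 genes, which is a pairing seen in the data and not stated by the labels, so the letter was used as a block in an alternative fit. Other alternatives were DESeq2 1.42.0, limma-voom (limma 3.58.1), other scalings and filters, a threshold of 0.01 and each library left out.

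The members and the 7 related gene lists and 9 marker lists were chosen with earlier results of these data known. Named genes are the members, up to 3 called genes of each list in each direction, taken by adjusted p, the 3 nearest profiles of each member, and genes that overlap a member's exons or start within 10 kb of its start. The markers named, and Sp9, Fgf8, Fgf15, Fgf17, Fgf18, Zfp503 and Dmrt3, were added after their values were seen. So were the Dlx and Gsx genes, Prox1, Htr3a, Vip and Scgn. Not every gene chosen in this way is reported here.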

Additional observations from a re-analysis of the deposited data

How the results depend on the processing

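The log2 fold changes kept their direction in all 75 combinations of the 5 members with 15 alternatives, and 73 kept their side of the threshold. The alternative with a threshold of 0.01 uses the main fit, so there the direction could not change. The exceptions were both of Nr2f2: at a threshold of 0.01 its log2 value of 0.78 did not pass, and without flox/flox B it missed 0.05, with values from 0.65 to 1.04 over the libraries left out. With the column letter as a replicate block all 5 members passed, with log2 values of 1.91 (Nr2f1), 0.81 (Nr2f2), -0.67 (Nr2f6), 0.85 (Nr2e1) and -2.60 (Sp8), and 8529 genes passed over the whole table against 7250 without it. The block changed no call of a member. Of all tested genes, 3887 passed at a threshold of 0.01, and between 4717 (without flox/flox B) and 6846 (without flox/flox C) passed with a library left out. At 0.01 the patterning lists kept 5 higher factors and 5 lower signals, and 3 eminence genes were higher. The share of Nr2f2 differed by -18.9 percentage points from raw counts. Sp8 rests on 150 to 265 reads in each -/- library, and with 3 libraries a group a permutation p cannot fall below 0.1.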
